A study of Homo sapiens with 16 samples.

Results

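CD82, CD9, CD63, CD81 and CD151 are 5 members of the tetraspanin family, and their RNA was followed across all 16 libraries of a study that depleted the transcription factor PRRX1 in 2 human tumour cell lines. They were taken by gene symbol from a table of 20114 genes. All 5 were found, and all 5 passed the filter on low counts in the fit over 14035 genes. The 5 genes were chosen by their measured values in these same libraries, pair by pair with and without doxycycline, so their levels and changes are described here and carry no test. No numerical threshold was part of that choice.

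The lines were Hs578, labelled as breast cancer, and TT642, labelled as rhabdoid tumor although the series text counts both among triple-negative breast cancer. Each was sequenced as the parental line with no shRNA and as 3 derived lines, shPRRX1_1, shPRRX1_2 and shPRRX1_3, which carry a tetracycline-inducible shRNA against PRRX1 and are called hairpin 1, 2 and 3 below. Every line was sequenced once without doxycycline and once with 3 µg/ml of it, the antibiotic that switches the shRNA on. That gave 3 hairpin libraries and 1 parental library per line and treatment, with the parental pair showing what doxycycline did in cells that had no shRNA. The numbers 1 to 3 were read as different hairpins. Whether the derived lines are clones or pools and how long the drug was present are not given in the labels. The derived lines without doxycycline still carry the shRNA cassette. With the numbers read as different hairpins, the 3 libraries of a hairpin group come from 3 derived lines. The p-values below measure only the spread between these libraries, which holds differences between the derived lines. Nothing in the labels says that any line was grown in separate cultures, so the spread between cultures of the same line is not known.

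Tetraspanins are small proteins that cross the membrane several times and gather integrins, proteases, immunoglobulin-like proteins and growth factor receptors into membrane microdomains. CD82, also called KAI1, is known as a suppressor of metastasis whose RNA is low in many invasive tumours. CD9 and CD81 are close relatives that bind the adhesion proteins IGSF8 and PTGFRN, CD63 sits mainly in late endosomes, lysosomes and extracellular vesicles, and CD151 binds the laminin-receptor integrins. PRRX1 is a homeodomain factor of mesenchymal cells.

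The stretches of 250 bases upstream of 2 RefSeq start sites are shown because CD82 was higher with doxycycline in every pair, while CD9 was lower in every Hs578 pair. They come from the RefSeq promoter table on GRCh38.p14, whereas the submitters' processing notes name hg19 for the expression files. The CD82 stretch lies at chr11:44565413-44565662 on the plus strand, and the CD9 stretch, 1 of 4 CD9 windows in that table, at chr12:6199696-6199945 on the plus strand. Both read 5′ to 3′, and capitals mark the GC box GGGCGG or its reverse complement and the homeodomain core TAATTA.
CD82: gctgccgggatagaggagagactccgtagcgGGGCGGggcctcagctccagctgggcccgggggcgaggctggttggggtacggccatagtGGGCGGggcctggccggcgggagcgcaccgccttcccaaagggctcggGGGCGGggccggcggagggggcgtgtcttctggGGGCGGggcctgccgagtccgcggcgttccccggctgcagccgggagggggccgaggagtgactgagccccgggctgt
CD9: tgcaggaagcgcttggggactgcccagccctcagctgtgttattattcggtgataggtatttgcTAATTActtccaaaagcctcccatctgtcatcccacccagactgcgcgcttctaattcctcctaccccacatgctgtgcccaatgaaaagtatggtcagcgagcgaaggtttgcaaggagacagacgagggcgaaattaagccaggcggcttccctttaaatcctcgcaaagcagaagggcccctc

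The CD82 stretch held 4 GC boxes and was 77.2% G and C. Over all 35116 windows of 250 bases in the table, 42.6% held a GC box on either strand. The CD82 stretch had no TAATTA, the core read by many homeodomain factors, which 4.35% of windows held on either strand, and the CD9 stretch had 1. The other 3 CD9 windows had none, and 2 of them held 6 and 3 GC boxes at 76.8% G and C each. The CD82 stretch also lacked the AP-1 motif TGANTCA, present in 6.57% of windows, and the E-box CACGTG, present in 6.34%. None of these motifs overlapped another in the CD82 stretch, since only the GC box was found there. A match is a string of letters and no evidence of binding, and an absent match says only that those letters are not in this window. CD63 had 8 windows in the table, 1 of which held both an AP-1 motif and an E-box. CD81 and CD151 are named only.

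Library totals ran from 13461527 to 19139654 counts in Hs578 and from 15265227 to 24672906 in TT642, and no 2 libraries agreed within sampling noise (lowest chi-square per degree of freedom 5.34). PRRX1 was the check of the labels. With doxycycline the hairpin lines kept 12.8%, 32.2% and 19.5% of their PRRX1 in Hs578 and 21.8%, 13% and 39.4% in TT642 for hairpins 1, 2 and 3, against 103% in both parental lines. Among the markers, EPCAM, CDH1 and KRT19 reached at most 0.361 FPKM in either line, and KRT18 was 109 to 253 FPKM in Hs578 but at most 0.938 in TT642. VIM, the mesenchymal intermediate filament, ran from 1830 to 2500 FPKM in Hs578 and from 4980 to 5690 in TT642. FN1, another mesenchymal marker, ran from 1250 to 2380 FPKM in Hs578 and only from 0.019 to 0.629 in TT642. ZEB1 was also higher in Hs578 (10.2 to 18.9 against 3.17 to 8.6 FPKM), while SNAI2 overlapped (32.7 to 63.1 against 29.5 to 42.9). KRT8 reached 19.4 to 47.3 FPKM in Hs578 and 0.347 to 2.51 in TT642. ESR1 and PGR reached at most 0.438 FPKM, and ERBB2 was 11.4 to 20.3 FPKM in Hs578 and 29.9 to 50.9 in TT642. SMARCB1, the gene typically lost in rhabdoid tumours, stood at 17.2 to 24.3 FPKM in TT642 against 48.3 to 63.2 in Hs578. Its RNA was therefore not absent from the line labelled rhabdoid. The blood markers PTPRC, CD53, CD37 and MS4A1 stayed at or below 0.469 FPKM, with MS4A1 at 0 counts. The share of counts from mitochondrial genes was 2.16% to 2.79% in untreated Hs578 and 3.18% to 5.44% in treated Hs578, parental included (4.16%). In TT642 it was 2.60% to 3.28% untreated and 2.59% to 3.98% treated. The part of this shift in the Hs578 results was not tested.

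Among the 5 genes, the 2 lines differed most in CD82 and CD151 before any drug was given. Levels of different genes are compared per length, as FPKM (fragments scaled for transcript length and library size), over the 4 untreated libraries of a line (parental and 3 hairpin lines). In Hs578, CD63 was the most abundant of the 33 tetraspanins at 856 ± 67.9 FPKM (SD, n = 4). CD151 followed at 538 ± 44.0, CD81 at 243 ± 12.1, CD82 at 99.8 ± 5.39 and CD9 at 69.0 ± 2.11 FPKM. The ranges of neighbours in this order did not overlap. TSPAN4 took the fourth place in the family, between CD81 and CD82, with 107 to 126 FPKM against 93.1 to 106 for CD82, so these neighbours lay close together.

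In TT642 the same genes stood in another order. CD63 again came first at 251 ± 11.8 FPKM (SD, n = 4), then CD81 at 101 ± 9.90, CD151 at 60.7 ± 5.00 and CD9 at 44.6 ± 3.55. CD82 came last of the 5, at rank 10 of the 33 tetraspanins, with 6.92 ± 3.04 FPKM, with single libraries at 4.2 FPKM (parental) and 6.99, 5.33 and 11.1 (hairpins 1, 2 and 3). The ranges of the 5 genes did not overlap, but TSPAN3, at 58.8 to 66.7 FPKM, overlapped CD151 at 55.1 to 66.9. Together the 5 genes made up 84.9% to 89.6% of all tetraspanin FPKM in the 8 Hs578 libraries and 72.6% to 76.0% in the 8 TT642 libraries.

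**Figure D1:**
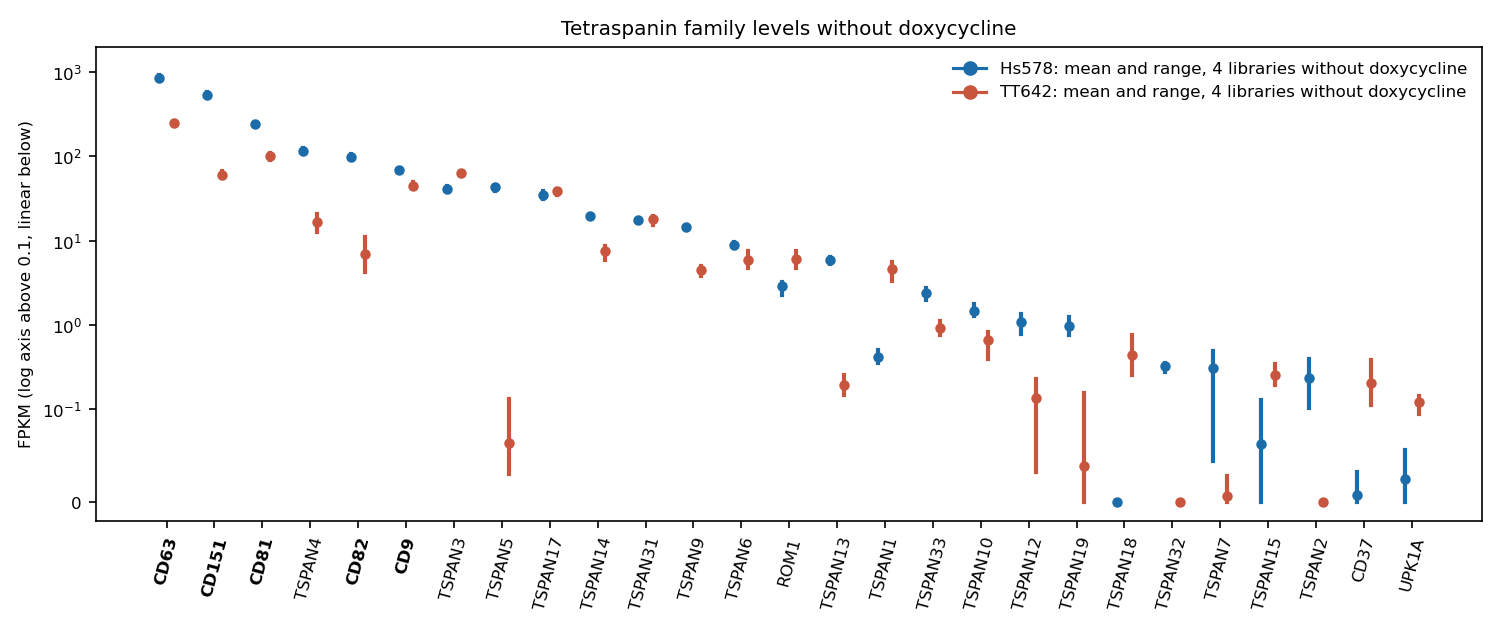
Mean FPKM (points) and range (bars) over the 4 libraries without doxycycline of Hs578 (blue) and TT642 (red), on an axis that is logarithmic above 0.1 FPKM and linear below it, for the tetraspanins whose mean reached 0.1 FPKM in either line. The 5 genes of this report are in bold: CD82 stood at 99.8 FPKM in Hs578 and 6.92 in TT642, CD151 at 538 and 60.7, whereas CD9 at 69.0 and 44.6 differed least.

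Between the lines, each gene is compared as TMM-scaled CPM (a count scaled to library size). CD82 measured 133 to 152 CPM in the 4 untreated Hs578 libraries and 5.07 to 10.6 in the 4 of TT642, a log2 difference of 4.19 (18.3-fold). CD151 measured 862 to 1010 against 85.9 to 104 CPM, a log2 difference of 3.29 (9.80-fold). For CD63 the log2 difference was 1.91, for CD81 1.48 and for CD9 0.80 (1.74-fold), and no gene's lines overlapped. Across all genes 83.5% were called different between the untreated lines by edgeR's quasi-likelihood test with Benjamini-Hochberg adjusted p under 0.05 (42.4% higher in Hs578, 41.1% lower), so a difference between these lines is the rule and not particular to tetraspanins. In bulk RNA, fewer cells with a transcript and less of it per cell cannot be told apart.

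CD82, the metastasis suppressor, was higher with doxycycline in all 8 pairs, and in Hs578 the parental line had as large a ratio as the hairpin lines. Untreated Hs578 libraries held 133 CPM (parental), 152, 149 and 145 CPM (hairpins 1, 2 and 3). Treated ones held 270, 267, 372 and 347 CPM in the same order. All 4 treated libraries lay above all 4 untreated ones. The log2 ratio of CPM was 0.81, 1.32 and 1.26 in the hairpin pairs, on average 1.13 ± 0.28 (SD, n = 3, 2.19-fold). In the parental pair it was 1.02, with a 95% interval of 0.94 to 1.09 from counting error alone (exact binomial). The parental value fell inside the range of the hairpin values, and the difference, hairpin mean minus parental, was 0.11. Counts thus gave log2 ratios of 1.13 for the hairpin mean and 1.02 for the parental pair. With the deposited FPKM (pseudocount 0.1) these were lower, at 0.75 and 0.68. That scale moved the median of all genes by -0.15 in the parental pair and by 0, -0.12 and -0.23 in the pairs of hairpins 1, 2 and 3, and CD82 remained above that median in each. The edgeR fit called 29.3% of all genes in the Hs578 hairpin comparison, 15.2% higher and 14.1% lower.

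In TT642 the parental line and the hairpin lines came apart. Untreated libraries held 5.07 CPM (parental), 9.52, 7.29 and 10.6 CPM (hairpins 1, 2 and 3), and treated ones 6.58, 23.2, 22.8 and 23.5 CPM. The 3 treated hairpin libraries stood close together and above every other TT642 library. The log2 ratio was 1.28, 1.63 and 1.14 in the hairpin pairs, on average 1.35 ± 0.25 (SD, n = 3, 2.55-fold). The parental ratio was 0.37, with a counting interval of 0 to 0.76, below all 3 hairpin values and 0.98 below their mean. With the deposited FPKM (pseudocount 0.1) the parental value was 0.07 and the hairpin mean 1.46, with 4.2 against 4.43 FPKM in the parental pair. Without doxycycline the hairpin lines already exceeded the parental line by 0.52 to 1.04 on the log2 scale, against 0.13 to 0.19 in Hs578. Even the highest of these TT642 libraries, at 23.5 CPM, remained below the lowest Hs578 library, at 133 CPM. Few genes were called in this comparison: edgeR called 0.0285% of all genes (4 genes, 0.0143% in each direction), and 1098 genes had an unadjusted p under 0.05. With each derived line as a block, 46 genes were called, and DESeq2 called 76. Leaving out hairpins or single libraries from the edgeR fit gave 0 to 6. With 3 hairpin lines, few calls do not show that few genes changed. Among the genes tested, the CD82 ratio stood at percentile 99.2, 99.4 and 99.4 in the TT642 hairpin pairs and 97.0, 98.3 and 97.8 in those of Hs578, against 93.4 and 94.0 in the parental pairs. These ranks also depend on how widely the other genes spread in a pair. In Hs578, hairpin 1 ranked above the parental pair although its log2 ratio was lower (0.81 against 1.02). CD82 was chosen by these values, so its ranks are a description.

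**Figure D2:**
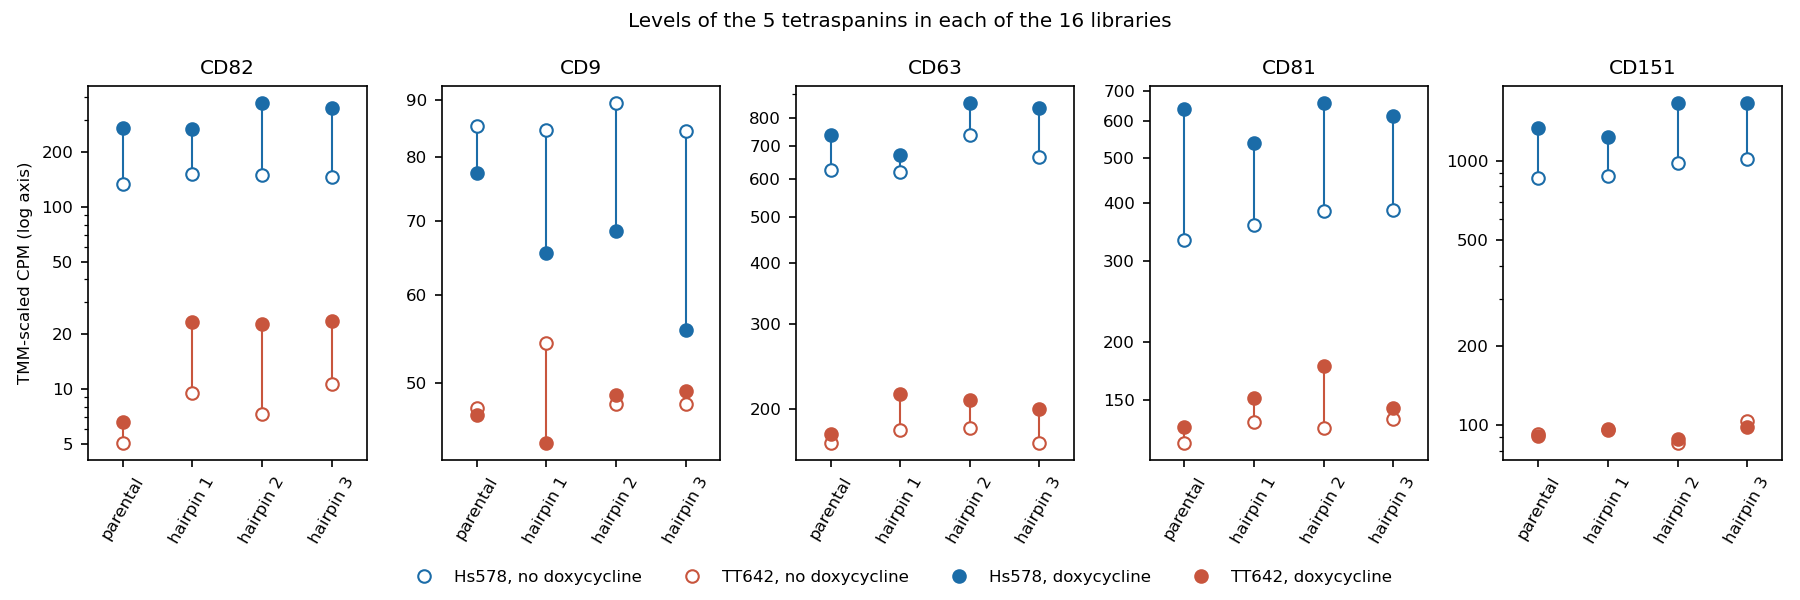
TMM-scaled CPM on log axes (a different range in each panel) for each of the 5 genes in every library, with the untreated (open) and treated (filled) library of a line joined. CD82 was higher with doxycycline in every pair, in the parental TT642 pair only 6.58 against 5.07 CPM, and CD151 was higher in the Hs578 pairs and lay between 85.9 and 104 CPM in TT642.

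The depth of PRRX1 depletion and the CD82 change ran in a different order in the 2 lines. In Hs578 hairpin 1 left the least PRRX1 (12.8%) and had the lowest CD82 ratio (1.75-fold). Hairpin 2 left the most (32.2%) and had the highest (2.50-fold), with hairpin 3 between them on both (19.5%, 2.39-fold). In TT642 hairpin 2 left the least PRRX1 (13%) and had the highest CD82 ratio (3.10-fold), while hairpin 3 left the most (39.4%) and had the lowest (2.21-fold). With 3 hairpins a line these orders are descriptions. The levels of PRRX1 themselves were 227 to 298 CPM in Hs578 and 1210 to 1530 in TT642 in the libraries where it was not depleted.

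**Figure D3:**
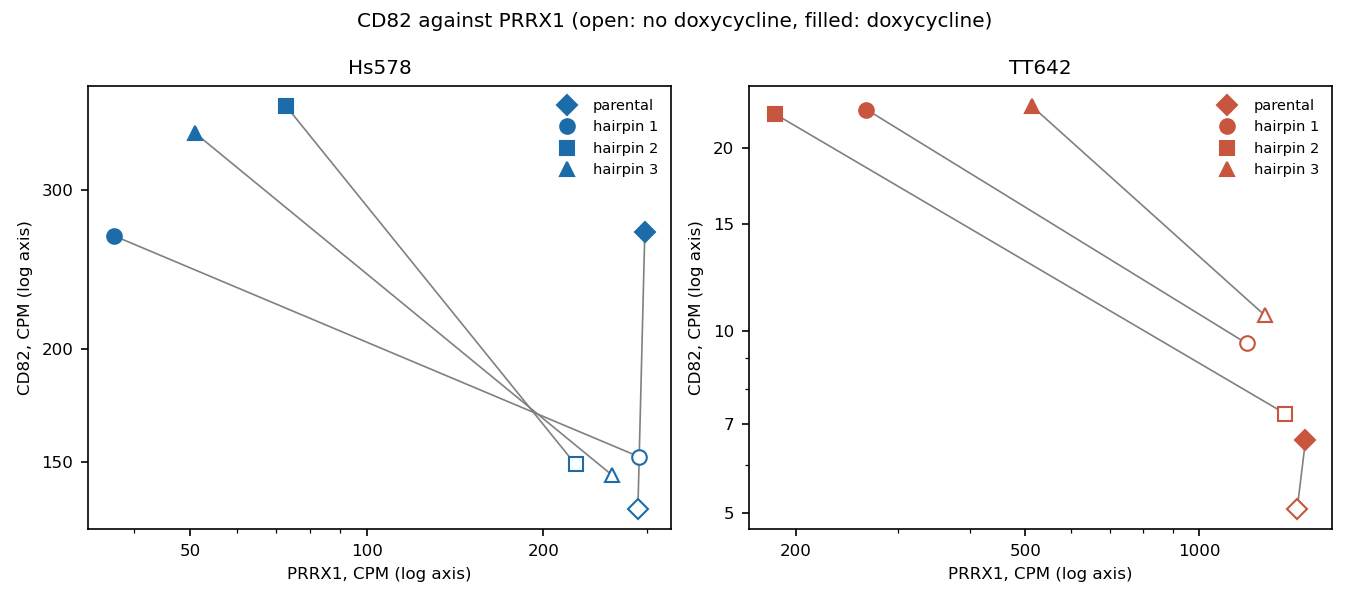
CD82 against PRRX1, both in TMM-scaled CPM on log axes, in Hs578 (left) and TT642 (right). Lines join the untreated (open) and treated (filled) library of each line: the parental Hs578 line moved straight up, from 133 to 270 CPM of CD82 with PRRX1 near 300 CPM, and the TT642 hairpin lines moved up and to the left, to between 22.8 and 23.5 CPM.

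CD9, which joins CD81 in complexes with IGSF8 and PTGFRN, was the only 1 of the 5 that was lower with doxycycline in all Hs578 pairs. Untreated Hs578 held 85.3 CPM (parental), 84.7, 89.5 and 84.4 CPM (hairpins 1, 2 and 3), and treated Hs578 77.4, 65.5, 68.6 and 55.8 CPM. The untreated and treated libraries did not overlap, and the parental line was the treated library closest to the untreated ones. The log2 ratio averaged -0.45 ± 0.13 (SD, n = 3) in the hairpin pairs, where each of them (-0.37, -0.38 and -0.60) lay below the parental -0.14 (counting interval -0.25 to -0.03). On the FPKM scale, read as plain log2 ratios, the parental ratio was -0.31 and the hairpin ratios -0.37, -0.50 and -0.84. Hairpin 1 was thus close to the parental pair on that scale. In TT642 the untreated libraries held 47.5, 54.4, 47.9 and 47.9 CPM and the treated ones 46.8, 44.2, 48.8 and 49.2 CPM, and these overlapped. The TT642 mean of -0.08 ± 0.19 (SD, n = 3) came from hairpin 1 alone, at -0.30, while hairpins 2 and 3 gave 0.03 and 0.04.

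CD63, the tetraspanin of late endosomes and vesicles, differed least between pairs. Hs578 held 624, 620, 739 and 664 CPM without and 738, 671, 861 and 841 CPM with doxycycline (parental, hairpins 1, 2 and 3). Treated and untreated libraries overlapped, although each pair was higher with the drug. The mean log2 ratio over hairpins was 0.23 ± 0.11 (SD, n = 3), and the parental value of 0.24 lay inside their range of 0.11 to 0.34. In TT642 the levels went from 170, 181, 182 and 170 CPM to 177, 214, 208 and 200 CPM. The 3 hairpin ratios there were close together at 0.24, 0.19 and 0.23 (mean 0.22 ± 0.02), all above the parental 0.06 with its counting interval of -0.01 to 0.13. On the FPKM scale, read as plain log2 ratios, the parental TT642 ratio was 0.15 and the hairpin ratios 0.23, 0.21 and 0.18.

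CD81, an entry receptor of hepatitis C virus, moved more in parental Hs578 than in any hairpin line. Its levels were 333, 359, 384 and 386 CPM without and 639, 539, 658 and 617 CPM with doxycycline, with no overlap. The hairpin ratios of 0.58, 0.78 and 0.68 (mean 0.68 ± 0.10, SD, n = 3) all lay below the parental 0.94 (counting interval 0.89 to 0.99). In TT642 CD81 went from 121, 134, 130 and 136 CPM to 131, 151, 177 and 144 CPM. The ratios there were 0.11 in the parental pair and 0.16, 0.44 and 0.08 in the hairpin pairs (mean 0.23 ± 0.19, SD, n = 3), so hairpin 2 alone stood clear of the parental value. With FPKM hairpin 2 gave 0.46 and the others 0.02 each, below the parental 0.14.

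CD151, the tetraspanin of the laminin-receptor integrins, was higher with doxycycline in all Hs578 pairs, and its log2 ratio lay between -0.08 and 0.05 in the TT642 pairs. Hs578 held 862, 876, 980 and 1010 CPM without and 1330, 1230, 1650 and 1650 CPM with doxycycline, again without overlap. The hairpin ratios were 0.49, 0.76 and 0.71 (mean 0.65 ± 0.14, SD, n = 3) and the parental 0.62 (counting interval 0.59 to 0.65) lay among them. TT642 held 92.8, 96.9, 85.9 and 104 CPM without and 91.1, 95.9, 88.8 and 98.7 CPM with the drug. The mean ratio over its hairpins was -0.01 ± 0.06 (SD, n = 3) and the parental ratio -0.03.

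**Figure D4:**
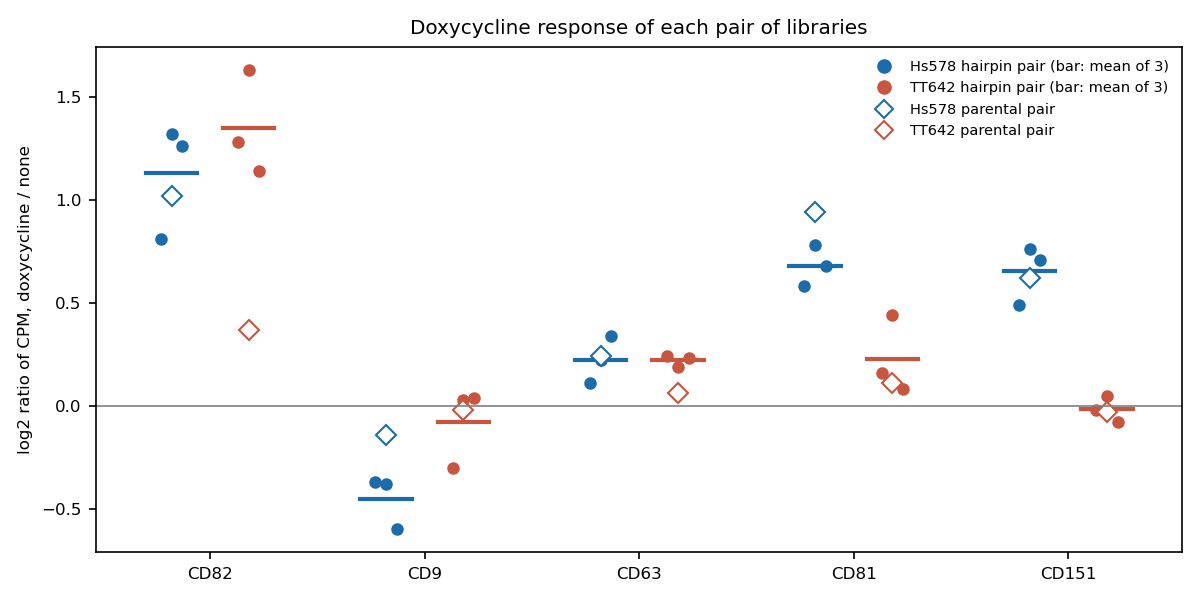
Log2 ratio of TMM-scaled CPM, doxycycline over none, for each hairpin pair (dots, with a bar at the mean of 3) and each parental pair (open diamonds). In Hs578 the parental diamond lies inside the hairpin values for CD82, CD63 and CD151, above them for CD81 (0.94) and above them for CD9 (-0.14). In TT642 it lies below them for CD82 (0.37) and CD63 (0.06).

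As a share of all tetraspanin FPKM, CD82 went from 4.19% to 5.31% in untreated Hs578 to 5.89% to 6.92% in treated Hs578, and CD151 from 24.8% to 26.6% up to 28.3% to 31.4%. CD9 went from 3.07% to 3.46% down to 1.44% to 2.25%. The share of CD63 went from 39.6% to 42.3% down to 35.6% to 37.9%, and that of CD81 from 11.1% to 11.9% up to 13% to 15.6%. All 5 shares moved the same way in the parental pair as in the hairpin pairs of Hs578. In TT642 CD82 made up 0.707% of the family in the untreated and 0.697% in the treated parental library, and went from 1.06%, 0.852% and 1.71% in the untreated to 2.72%, 2.88% and 3.06% in the treated libraries of hairpins 1, 2 and 3.

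How the 5 genes varied together depended on the line. After each line's mean was subtracted, the log2 CPM of CD82 over the 8 Hs578 libraries had Pearson correlations of 0.97 with CD81, 0.97 with CD151, 0.81 with CD63 and -0.87 with CD9. Over the 8 TT642 libraries the same values were 0.86, 0.24, 0.90 and -0.11. Over all 16 libraries CD82 and PRRX1 correlated at -0.82. The libraries share the drug treatment and, in pairs, the line of origin, so these values describe the set and are not tests. Among the 10350 genes whose log2 CPM averaged 2 or more, the profile most like that of CD82 was that of GGT7 (0.96), a gamma-glutamyltransferase family gene, followed by the fibronectin-receptor chain ITGA5 (0.95), NRBP1 (0.94), the homeobox gene MEIS3 (0.93) and WBP1 (0.93). The most opposite were the haem and choline transporter FLVCR1 (-0.93), the histone gene HIST1H2AC (-0.92) and the adaptor subunit AP4E1 (-0.91). GGT7 measured 17.9 to 20.8 CPM in untreated and 23.7 to 29.1 CPM in treated Hs578, and in TT642 it went from 3.53 to 3.75 CPM in the parental pair and from 4.52 to 5.51 up to 6.55 to 8.02 CPM in the hairpin lines.

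To place the 5 genes in their pathway, 84 further genes were followed. They were the other 28 tetraspanins, 25 partner proteins, 20 genes of sorting and vesicle release and 11 regulators or binding partners of CD82 itself. The last list is called regulators below, although VANGL1 and ACKR1 in it are binding partners. All 84 genes too were chosen with earlier results of these data known, which limits what their p-values and called shares can show. Of the 84 genes 75 passed the low-count filter and were tested by edgeR with adjustment over all 14035 genes. In the Hs578 hairpin comparison 11 rose and 13 fell, 32.0% of those tested against 29.3% of all genes, so the share called was close to the background. Leaving out hairpin 3 in both lines cut the 24 calls to 7 and the 4118 calls over all genes to 840. Leaving out its treated Hs578 library alone gave 15 and 2680, and leaving out the untreated Hs578 library of hairpin 1 gave 12 and 2253. Without hairpin 1 the calls over all genes were 2678, and without the treated library of hairpin 2 they were 2714.

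Partner proteins were the list with the largest called share in Hs578, 47.8% against 29.3% of all genes, and no list was tested as a set. Of 23 tested, 5 rose and 6 fell, with a median log2 change of -0.17 against 0 for all genes. TIMP1, a metalloproteinase inhibitor that binds CD63, rose from 134 ± 10.2 to 289 ± 97.4 CPM (SD, n = 3, log2 1.11 ± 0.29 SE, edgeR adjusted p = 0.019). IFITM3, an interferon-induced membrane protein, rose by 0.94 (edgeR adjusted p = 0.0062), IGSF8 by 0.48 (0.0035 by the same test) and ITGA5 by 0.46 (0.0024). All 4 were also higher in the treated parental line, by 1.01, 1.26, 1 and 0.51 in that order. Integrin chains made up most of the decreases. ITGA4 fell from 106 ± 18.3 to 44.5 ± 10.8 CPM (SD, n = 3, log2 -1.25, edgeR adjusted p = 8.71e-04), with -1.08 in the parental pair. ITGA6, which pairs with ITGB1 or ITGB4 as a laminin receptor and binds CD151, fell by 1.12 on the log2 scale (edgeR adjusted p = 0.0017), with -0.35 in the parental pair. Its partner ITGB4 fell by 1.08 (edgeR adjusted p = 0.046) at 1.56 ± 0.884 treated CPM (SD, n = 3), and went the other way, by 1.55, in the parental pair. The ITGB4 call was lost in 10 of 16 alternatives, DESeq2 among them. EGFR fell by 0.71 (edgeR adjusted p = 0.018), with -0.83 in the parental pair. MMP14, ITGB1 and ADAM10 were also called (0.40, -0.61 and -0.46), and MMP14 and ADAM10 are named after their values were seen. In the parental pair these 3 gave 1.15, 0.05 and -0.12, so MMP14 was higher there by more than in the hairpin lines.

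Among the other tetraspanins 2 of 22 rose and 2 fell, 18.2% against 29.3% of all genes, with a median of 0.16. TSPAN3 rose by 0.32 (edgeR adjusted p = 0.02) and TSPAN9 by 0.29 (0.021), with 0.13 and 0.42 in the parental pair. TSPAN5, which escorts the sheddase ADAM10 to the cell surface, fell from 167 ± 4.70 to 119 ± 10.3 CPM (SD, n = 3, log2 -0.49, edgeR adjusted p = 0.0019), with -0.34 in the parental pair. TSPAN19 fell by 1.89 (edgeR adjusted p = 0.026) from only 8 to 16 counts a library to 2 to 4, with 0.01 in the parental pair. TSPAN4, which ranked between CD81 and CD82 in Hs578, had a change of 0.34 that missed the threshold (edgeR adjusted p = 0.062), and TSPAN14 and TSPAN17 gave -0.18 and -0.07 (0.19 and 0.53). Of these calls only that of TSPAN5 was kept in 15 of its 16 alternatives, the exception being the one without hairpin 3.

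In the sorting and vesicle list 2 of 20 rose and 5 fell, 35% against 29.3% of all genes, with a median of -0.08. LAMP2, a lysosomal membrane protein, fell from 365 ± 21.3 to 241 ± 33.7 CPM (SD, n = 3, log2 -0.60, edgeR adjusted p = 0.0017), and ZDHHC2, which palmitoylates CD9 and CD151, fell by 0.65 (0.0026). In the parental pair these gave -0.22 and -0.47. SDCBP, the syntenin that binds CD63, fell by 0.35 (edgeR adjusted p = 0.026) and was higher by 0.20 in the parental pair, and the AP-3 subunit AP3M1 fell by 0.33 (0.024). PDCD6IP also fell, by 0.20, and is named after its value was seen. The ESCRT genes CHMP4B and VPS4A rose by 0.31 and 0.24 (edgeR adjusted p = 0.014 and 0.038), calls that were lost in 5 and 12 of 16 alternatives, that of VPS4A also under RLE scaling and DESeq2. Of the 10 genes tested in the regulator list, 2 rose and none fell, 20% against 29.3% of all genes, with a median of 0.12. RUVBL2, a chromatin-remodelling ATPase reported at the CD82 promoter, rose from 152 ± 9.15 to 202 ± 12.9 CPM (SD, n = 3, log2 0.41, edgeR adjusted p = 0.0024), against -0.09 in the parental pair. JUN, a subunit of the AP-1 factors, gave -0.55 and did not pass (edgeR adjusted p = 0.099).

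**Figure D5:**
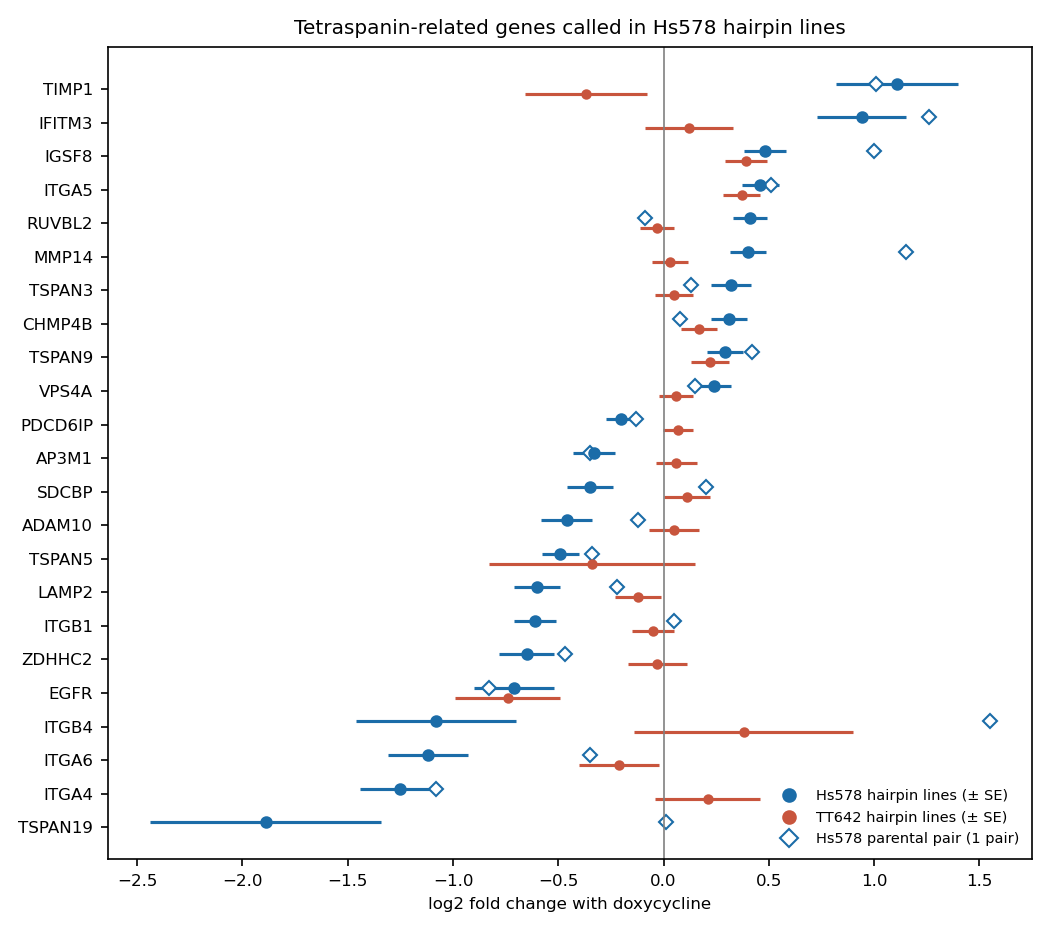
Log2 fold change with doxycycline for 23 of the 24 related genes called in the Hs578 hairpin lines (blue dots, ± SE), the same genes in the TT642 hairpin lines (red dots, ± SE, left out for TSPAN19 where no standard error could be had) and the single parental Hs578 pair (open diamonds). The parental diamond sits near the hairpin value for TIMP1, ITGA4 and EGFR, and on the other side of 0 for ITGB4 (1.55) and SDCBP (0.20). It also lies just across 0 from the hairpin value for RUVBL2 (-0.09), ITGB1 (0.05) and TSPAN19 (0.01).

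In TT642 no related gene was called by edgeR, 0 of 75, where 1098 of all genes had an unadjusted p under 0.05 and 0.0285% were called after adjustment. With each derived line as a block, ICAM1 was called (log2 -1.23), and DESeq2 called ITGA5 (0.36). The medians were 0.19 for the other tetraspanins, 0.11 for partners, 0.01 for sorting genes and 0.04 for regulators, against 0 for all genes. Some genes that rose in Hs578 had near values here: ITGA5 gave 0.37, going from 77.0 ± 5.64 to 99.7 ± 4.65 CPM (SD, n = 3), and IGSF8 gave 0.39, from 14.4 ± 0.46 to 18.9 ± 1.44 CPM, with edgeR adjusted p = 0.22 and 0.25. The parental TT642 pair gave 0.21 for ITGA5 and -0.04 for IGSF8. EGFR, which fell in Hs578, gave -0.62, -1.45 and -0.05 in the 3 TT642 hairpin pairs.

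The difference between the lines in the doxycycline response, tested as an interaction, called 5.24% of all genes (2.76% higher in Hs578, 2.48% lower) and 5 of the 75 related genes. RUVBL2 differed by 0.44 (edgeR adjusted p = 0.043) and ICAM1, an adhesion ligand, by 1.77 (0.048). ITGB1, the common integrin beta chain, differed by -0.56 (edgeR adjusted p = 0.042), ITGA4 by -1.47 (0.028) and the syndecan SDC4 by -2.08 (0.046), the last from 2 to 12 counts a library in the TT642 hairpin lines. With the derived line as a block 1763 genes and 13 related genes were called, the 5 above among them. Leaving out a hairpin number or a single library gave 14 related calls at the highest (without the treated Hs578 library of hairpin 1) and 0 in several fits. Those with 0 left out hairpin 2 or hairpin 3, the untreated library of hairpin 1 or 3 in either line, or the treated Hs578 library of hairpin 2. Over all genes there were 2 calls without hairpin 3 and 2082 without the treated Hs578 library of hairpin 1. In 13 of 15 such fits the count over all genes moved by over 1.5 times. By edgeR none of the other tetraspanins was called, and limma on log2(FPKM + 1) called TSPAN5 (-0.60).

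Net of the parental pair, where the hairpin change is set against the change in the line without shRNA, 0.406% of all genes were called in Hs578 (0.292% higher, 0.114% lower) and 0% in TT642. These comparisons use the same hairpin libraries as the simple ones, and each rests on 1 parental pair whose spread was taken from the other groups. None of the 75 related genes was called by edgeR in either line, with 1996 genes in Hs578 and 179 in TT642 at an unadjusted p under 0.05. DESeq2 called 302 genes in Hs578, of which 3 were related (ITGA7, ITGB1 and MMP14), and limma on log2(FPKM + 1) called 1 related gene there, VCAM1. In TT642 DESeq2 called 0 genes and limma on log2(FPKM + 1) called 1, which is not among the related genes. With the derived line as a block 140 genes were called in Hs578, among them ITGA7 (-1.54) and ITGB4 (-2.71), chains of laminin receptors. ITGA7 was higher by 1.11 in the parental Hs578 pair and gave -0.55, 0.07 and -0.82 in the hairpin pairs. Leaving out hairpins or single libraries gave 0 calls over all genes without hairpin 3 and 139 without hairpin 2, with at most 2 related calls.

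Between the untreated lines 65 of the 75 related genes were called, 49 higher and 16 lower in Hs578, which is 86.7% against 83.5% of all genes. Among the other tetraspanins 14 of 22 were higher in Hs578 and 5 lower, with a median log2 difference of 1.67. TSPAN5 measured 164 to 172 CPM in Hs578 and 0.0972 to 0.283 in TT642, where it had 2 to 5 counts a library. TSPAN2 and TSPAN32 had 0 counts in the 4 untreated TT642 libraries, which allows up to 0.139 to 0.17 CPM a library at 3 counts, and reached at most 0.861 and 0.518 CPM in Hs578. TSPAN19, also called, had at most 1 count there. TSPAN1 went the other way, with 0.631 to 0.988 CPM in Hs578 and 5.67 to 10 in TT642 (log2 -3.37, edgeR adjusted p = 1.02e-09). TSPAN18 did so too, with 0 to 3 counts in Hs578 and 20 to 31 in TT642, and ROM1 (-1.19) and CD37 (0 to 1 against 3 to 8 counts) were also lower in Hs578.

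Of the partner proteins 17 of 23 were higher in Hs578 and 3 lower, with a median of 1.17. The called shares were 87% for partners, 80% for sorting genes and 100% for regulators, against 83.5% of all genes. PTGFRN, the partner of CD9 and CD81, stood 7.56 higher on the log2 scale (edgeR adjusted p = 2.18e-13), the CD151-binding integrin chain ITGA3 5.27, ITGA7 5.26 and EGFR 4.96. TIMP1 was lower by 2.03 in Hs578 (log2 -2.03, edgeR adjusted p = 2.72e-05), and MMP14 (-0.61) and ICAM1 (-0.66) were lower as well, ICAM1 with 13 of 22 alternatives losing the call. In the sorting list 13 of 20 were higher and 3 lower, with a median of 0.34: SDC4 had 197 to 228 CPM in Hs578 and 0.0972 to 0.372 in TT642 (2 to 8 counts), ZDHHC2 was higher by 3.33, RAB27B by 2.67 and LAMP2 by 2.03, while AP3B1 (-1.45), AP3M1 (-0.43) and STAM (-0.38) were lower. The regulator list, which includes the binding partner VANGL1, split evenly, 5 higher and 5 lower, with a median of 0.08. The AP-2 factor gene TFAP2A was higher by 5.22 (edgeR adjusted p = 4.29e-06), JUN by 2.58, VANGL1 by 1.34 and RUVBL2 by 0.77, and RUVBL1 (-0.83) and NFKB1 (-0.80) were among those lower.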

How the data were processed

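The authors deposited 1 table of raw counts per gene and 1 table of FPKM per gene, with a column for each of the 16 libraries of polyA RNA, per the labels made with a stranded Illumina kit from 500 ng. The submitters' processing notes list hg19 as genome build. Which aligner, counter and annotation were used, and whether counting was stranded, was not given in the sources used here. All 16 columns matched a sample title.

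The 5 tetraspanins and the 84 related genes were chosen with earlier results of these data known. The 5 therefore carry no test, and the p-values and called shares of the 84 are limited by that choice. Counts were scaled with TMM, and log2 CPM used a prior count of 2. Genes were filtered with filterByExpr, which left 14035 of 20114, and 2457 genes had no count at all. All 16 libraries entered 1 edgeR quasi-likelihood fit with 8 group means (8 residual degrees of freedom, edgeR 4.0.16, R 4.3.3), with Benjamini-Hochberg adjustment over all genes tested and calls at adjusted p under 0.05. The single parental libraries were thereby assumed to vary like the hairpin groups. Named related genes are, per list, comparison and direction, the called genes with the largest changes, up to 4. Genes like CD82 are the 5 with the highest and the 3 with the lowest Pearson correlation after subtraction of each line's mean. Counting intervals are exact binomial at 95% and, like the limit of 3 counts for a count of 0, cover counting error only. The fit was first tested on simulated data.

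The hairpin number pairs a treated with an untreated library, because both were made from 1 derived line. Correlations of their deviations from the group means were 0.13, -0.03 and 0 for Hs578, and for TT642 0.44, 0.42 and 0.42. Alternatives were RLE scaling, no filter, a block for the derived line, 1 line at a time, DESeq2 1.42.0, limma 3.58.1 on the deposited FPKM, and leaving out hairpins or libraries. The older symbol DARC was used for ACKR1, and PECAM1 was not analysed here. Values of some list genes are not reported here, although they stay in the counts of their lists.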

Additional observations from a re-analysis of the deposited data

Results flagged for a closer look

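CD9 measured 54.4 CPM in the untreated TT642 library of hairpin 1, against 47.5, 47.9 and 47.9 CPM in the other untreated TT642 libraries, so it stood apart from the other 3. CD9 was chosen by these values, and this is a description. The negative CD9 ratio of hairpin 1 in TT642 uses this library.

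The doxycycline response differed between Hs578 and TT642 hairpin lines by edgeR's interaction test in 5 related genes. RUVBL2 differed by 0.44 on the log2 scale, with adjusted p of 0.0087 to 0.4 over its 21 alternatives. ICAM1 differed by 1.77 (0.0065 to 0.34), ITGB1 by -0.56 (0.0019 to 0.46), ITGA4 by -1.47 (1.80e-04 to 0.2) and SDC4 by -2.08 (0.016 to 0.19). In pairs, ITGA4 gave -1.18, -0.98 and -1.63 in Hs578 and 0.17, 0.13 and 0.25 in TT642. ICAM1 was higher in all 3 Hs578 hairpin pairs and lower in all 3 of TT642, and its parental pairs gave 2.23 and -1.15. No cause was tested.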

How the results depend on the processing

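Over 145 recomputed values of the 5 tetraspanins, 120 moved by less than the spread, 25 moved by more and none reversed. Among the 120, 8 values near 0 changed sign. Parental values rest on 1 pair and have only a counting interval. The parental TT642 ratio of CD82 was not among the 25, although it went from 0.37 to 0.06 and 0.07 on the deposited FPKM. Its counting interval was wide, from 0 to 0.76, so it is not shown to be stable. The 25 all came from the deposited FPKM, at pseudocounts of 1 and 0.1. The Hs578 hairpin means became 0.75 at both for CD82 and 0.55 at both for CD81. Parental Hs578 ratios became 0.67 and 0.68 for CD82, -0.30 and -0.31 for CD9, 0.18 at both for CD63, 0.78 for CD81 and 0.48 for CD151, and parental TT642 gave 0.15 for CD63. The line differences became 0.62 and 0.63 for CD9, 1.76 and 1.77 for CD63, 1.26 and 1.27 for CD81, 3.13 and 3.15 for CD151, and 3.74 at a pseudocount of 1 for CD82. The cause was not tested.

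With the replicate block, TT642 hairpin calls went from 4 to 46 over all genes and from 0 to 1 among related genes. The line difference went to 1763 and 13, and Hs578 net of parental to 140 and 2. Under DESeq2 these counts were 76 and 1, 1419 and 16, and 302 and 3. Under limma on log2(FPKM + 1) they were 13 in TT642, 1118 and 10 for the difference, 1 related gene for Hs578 net and 1 gene for TT642 net. At a pseudocount of 0.1 the difference had 8 related calls and Hs578 net 13 over all genes. Without the low-count filter TT642 had 8 calls and Hs578 net 1 related call. With 1 line only, TT642 had 2 and Hs578 net 2 calls. The block moved no other count by over 1.5 times. It lost none of the 19 genes named in the Hs578 hairpin comparison.

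Leaving out hairpins or single libraries gave 840 to 4768 calls over all genes and 7 to 32 related calls in the Hs578 hairpin comparison, and 0 to 6 calls in TT642. For the line difference it gave 2 to 2082 and 0 to 14, and for Hs578 net of parental 0 to 139 and 0 to 2.
In the Hs578 hairpin comparison 4 of 19 named genes (IGSF8, ITGA6, ITGA4 and LAMP2) were called under every alternative, and 15 were lost in some, with 15 of 19 lost without hairpin 3. Of 28 named between the untreated lines 26 were called throughout, and CD37 and ICAM1 were not. CD82 in parental TT642 has few counts, and its interval reaches 0.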
